A study of Mus musculus with 21 samples.

Results

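Epididymal fat of mice fed a high-fat diet with the lower dose of fermented mixed grain was compared with that of mice fed a normal diet, over all genes with a probe of a single symbol. The comparison was between 6 of the 21 arrays of the series, 3 per group, over 16248 genes, each represented by its brightest probe. The group means came from those 6 arrays. The spread behind standard errors, intervals and p-values was estimated from all 21 arrays in 7 groups. All mice were male C57BL/6J, 4 weeks old on arrival, housed singly, given chow for 1 week and then their diets for 12 weeks. ND mice received a normal diet with 10% of its energy from fat. L_FMG mice received a high-fat diet, 40% of energy from fat, to which 0.3% by weight of fermented mixed grain was added. Mice labelled HFD ate the high-fat diet without a supplement, and H_FMG mice ate it with 0.9% of the fermented grain. ND and HFD are described with 10 mice each, and no number is given for L_FMG or H_FMG. L_FMG and ND differed in both fat and grain, so within that comparison alone the effects of the fat and of the grain cannot be told apart. The L_FMG against HFD comparison addresses the grain, and HFD against ND the fat. Arrays are named by the number in their title, 6, 8 and 9 for ND, 4, 8 and 10 for L_FMG and 4, 6 and 7 for HFD, and values are listed in that order. Nothing in the labels says that the arrays are from separate mice, so p-values measure the spread between arrays within the groups.

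Epididymal fat is the visceral fat pad beside the testis. When mice become obese on a high-fat diet its adipocytes enlarge, macrophages gather around dying adipocytes and take up their lipid, and the connective tissue between the cells is remodelled. Adipocytes under such a diet also make less new fatty acid, since the diet supplies it. The tissue was measured whole, so fewer cells of a type and less RNA per cell cannot be told apart.

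Values were log2 levels, and a difference of 1 is a doubling. The 15 measured adipocyte markers had mean levels from 6.72 to 12.4, with a median of 9.32, against 4.73 over all genes. Markers of epididymis and sperm, the nearest neighbouring tissue, had a median level of 3.20. The highest of them was Odf1, a sperm tail protein, at 11.3. Array medians lay between 4.23 and 4.39, 0 pairs of arrays held identical values, and the number of arrays, 3 per group, limits the precision. ND array 9 stood apart from the other ND arrays. Relative to the ND mean, its mean over the 23 macrophage markers was 0.41, against -0.18 and -0.23 in ND arrays 6 and 8. Its mean over the 15 adipocyte markers was -0.35, against 0.17 and 0.18. The SD over all its probes was 1.82, the smallest of the 3, against 1.94 and 1.92. What sets that array apart was not tested.

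Between L_FMG and ND, 1 gene passed an adjusted p of 0.05 (limma, Benjamini-Hochberg over all genes). It was Thbs2, which rose. That is 0.00615% of the genes tested as higher, and 0.0% were lower. At an unadjusted p under 0.05 there were 2089 genes, 1110 higher and 979 lower. The L_FMG arrays lay wholly above the ND arrays in 6.73% of genes and wholly below in 6.57%. Against the HFD arrays the shares were 7.3% and 10.1%. These shares over all genes are the background for the counts of non-overlapping genes given below. The median log2 difference over all genes was -0.007, the median size of a difference 0.13 and the median standard error 0.15. The same fit called 1403 genes in HFD against ND, 6.54% of the genes rising and 2.09% falling, with 368 calls without HFD array 6 and 826 without HFD array 7. Without ND array 9, L_FMG against ND gave 275 calls, of which 161 were higher, 0.991%, and 114 lower, 0.702%. Leaving out 1 other array gave between 1 and 10 calls, with 10 without ND array 6, 2 without ND array 8 and 6 without L_FMG array 10. Weighting the arrays by their quality gave 460 calls, and the fit of the 2 groups alone gave 0.

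Thbs2 encodes thrombospondin 2, a secreted matrix protein that binds collagen-modelling enzymes and restrains the growth of vessels. Its levels were 6.43, 6.47 and 6.34 in ND, 7.35, 7.11 and 7.11 in L_FMG and 7.25, 7.50 and 7.32 in HFD. All L_FMG arrays were above all ND arrays, and L_FMG and HFD arrays overlapped. The rise in L_FMG was 0.78 ± 0.10 (SE, n = 3 per group), with a 95% interval from 0.58 to 0.98 and an adjusted p of 0.00153 (limma). It rose by 0.94 in HFD and by 0.83 in H_FMG against the same ND arrays. L_FMG minus HFD was -0.17, with an interval from -0.37 to 0.03. Thbs2 passed the threshold in 14 of 15 alternative analyses, with adjusted p-values between 0.000895 and 0.0273. It missed it in the fit of the 2 groups alone, with an adjusted p of 0.537. The difference lay between 0.69 and 0.82 in all 15.

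Matrix genes other than collagens, a list of 24 measured genes that includes Thbs2, had a median difference of 0.28. In 9 of the 24 the L_FMG arrays lay wholly above the ND arrays and in 0 wholly below, beside 6.73% and 6.57% of all genes. Fbln2, fibulin 2, an elastic fibre protein, measured 7.88, 7.81 and 7.84 in ND and 8.47, 8.31 and 8.24 in L_FMG. The groups did not overlap, and the difference was 0.50 ± 0.09 with an adjusted p of 0.0869 (limma). Mmp14, a membrane-bound protease that cleaves collagen, measured 7.85, 7.69 and 7.94 in ND, 8.63, 8.66 and 8.57 in L_FMG and 8.84, 8.87 and 8.71 in HFD. The L_FMG arrays stood between those of the other groups without touching either, at 0.79 ± 0.16 over ND with an adjusted p of 0.125. Fn1, fibronectin, was 0.44 ± 0.12 over ND without overlap. In HFD against ND, 9 of the 24 rose, Fbln2 by 0.45, Mmp14 by 0.98 and Fn1 by 0.51 among them. ND array 9 was low for the list, -0.24 relative to the ND mean against 0.18 and 0.06 in ND arrays 6 and 8. Leaving it out lowered the list's median to 0.08, while 4 of the genes passed and Fbln2 and Mmp14 differed by 0.49 and 0.85.

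The 13 measured collagens had a median difference of 0.19. Of these, 3 were wholly above ND and 1 wholly below, beside 6.73% and 6.57% of all genes. Col14a1, a collagen that associates with fibrils, differed by 0.71 ± 0.23, and Col1a2, a chain of the main fibrillar collagen, by 0.41 ± 0.14. In HFD 2 of the 13 rose, Col1a2 by 0.67 among them, and 1 fell. Col14a1 was 0.46 without ND array 9. The collagen list's mean, relative to ND, was 0.30, 0.19 and 0.05 in L_FMG arrays 4, 8 and 10, so array 10 was closest to the ND mean.

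Fibroblast and progenitor markers, 15 genes, had a median difference of 0.24, with 4 wholly above ND and 1 wholly below. Pdgfra, the receptor that marks fibroblasts and adipocyte progenitors, measured 7.75, 7.67 and 7.54 in ND, 8.16, 8.17 and 8.52 in L_FMG and 8.28, 8.35 and 8.23 in HFD. Every L_FMG array exceeded every ND array, by 0.63 ± 0.14 in the mean with an adjusted p of 0.135. L_FMG minus HFD was -0.00 for Pdgfra, with an interval from -0.30 to 0.29, so differences of that size between these groups are not excluded. F3, tissue factor, differed from ND by 0.40 ± 0.09 and Cd248, a stromal surface protein, by 0.45 ± 0.16, each without overlap. Dpp4, a marker of early progenitors, measured 6.73, 6.34 and 5.70 in ND and 7.17, 6.53 and 6.99 in L_FMG, and the groups overlapped. The fibroblast list was lowest in ND array 9, at -0.33 relative to the ND mean, against 0.22 and 0.11 in ND arrays 6 and 8. Its part in these differences was not tested. Without it the list's median difference was 0.14, Cd248 differed by 0.27 and Dpp4 by 0.36, and 0 of the 15 passed.

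**Figure D1:**
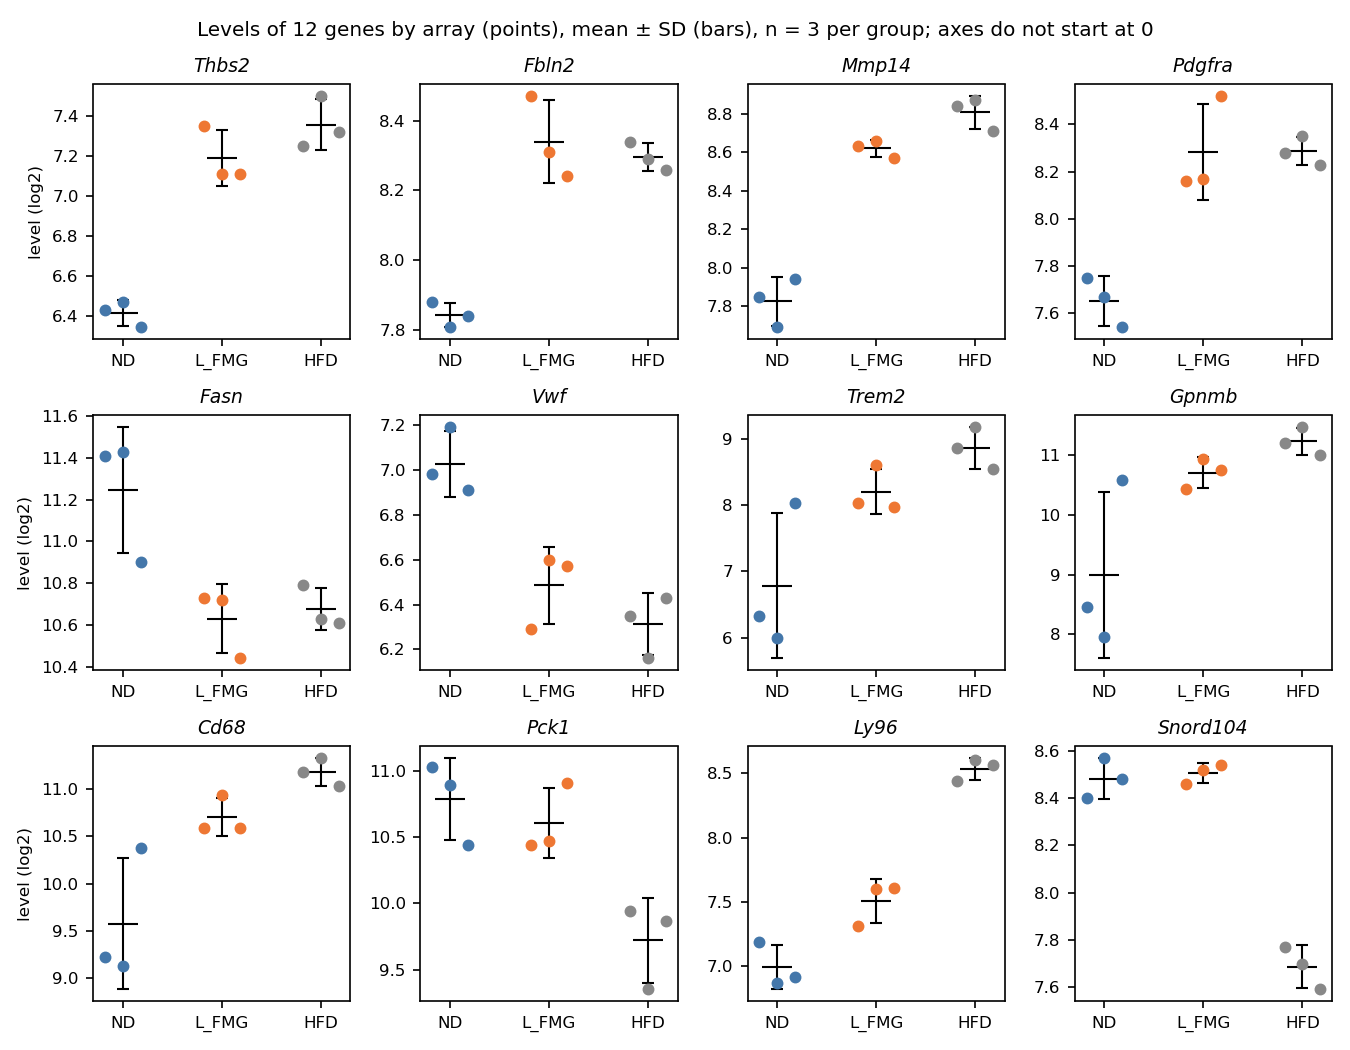
Log2 level of 12 genes in each ND, L_FMG and HFD array, with the group mean ± SD (n = 3); the axes do not start at 0. Thbs2, Fbln2, Mmp14 and Pdgfra were higher in all L_FMG arrays than in all ND arrays, whereas ND array 9 was high for Trem2 and Gpnmb. Snord104, picked for its small p against HFD, lay with ND in L_FMG and apart from HFD.

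Of the genes outside the lists with the smallest p-values, Agap3, a regulator of small GTPases, was 0.51 ± 0.09 over ND, with an adjusted p of 0.0869. Cygb, cytoglobin, an oxygen-binding protein of fibroblasts, was 0.52 ± 0.10 over ND, with an adjusted p of 0.125. Inhba, which encodes the activin A subunit, measured 4.49, 4.48 and 4.79 in ND, 3.78, 3.13 and 3.94 in L_FMG and 3.65, 3.89 and 3.59 in HFD. All L_FMG arrays were below all ND arrays, by -0.97 ± 0.18 with an adjusted p of 0.0869, and Inhba fell by 0.88 in HFD. Inhba passed without L_FMG array 10 (-1.13) and without ND array 9 (-0.87), and Agap3 without ND array 6 (0.56) and without ND array 9 (0.52). Cygb passed without ND array 9, at 0.45. Mrpl40, a mitochondrial ribosomal protein, differed by -0.57 ± 0.12 in L_FMG and fell by 0.48 in HFD. Mettl15, a methyltransferase of mitochondrial ribosomal RNA, measured 4.94, 4.75 and 4.98 in ND, 4.63, 4.27 and 4.09 in L_FMG and 4.72, 4.90 and 4.66 in HFD. Its L_FMG arrays were below those of both other groups, by -0.56 ± 0.13 against ND and by -0.43 against HFD, and neither difference passed.

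Macrophage genes stood between the diets in L_FMG. All 23 measured macrophage markers had a positive difference from ND, with a median of 0.60, and the L_FMG arrays were wholly above ND in 10, but 0 passed the threshold. In HFD, 20 of the 23 rose, with a median of 1.20. The L_FMG arrays lay wholly below the HFD arrays in 19 of the 23, beside 10.1% of all genes, and wholly above them in 0, beside 7.3%. The list's mean relative to ND was 0.59, 0.80 and 0.40 in the L_FMG arrays and 1.06, 1.28 and 1.04 in the HFD arrays. L_FMG array 10 thus stood level with ND array 9, at 0.40 and 0.41.

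Cd68, a lysosomal membrane protein of macrophages, measured 9.22, 9.13 and 10.38 in ND, 10.59, 10.94 and 10.59 in L_FMG and 11.18, 11.33 and 11.03 in HFD. The 3 groups did not overlap, although ND array 9 came close to L_FMG. The L_FMG difference was 1.13 ± 0.29, with a 95% interval from 0.53 to 1.73 and an adjusted p of 0.157 (limma). Cd68 rose by 1.60 in HFD. Fcgr1, the high-affinity receptor for IgG, measured 5.69, 5.56 and 6.13 in ND, 7.25, 7.19 and 6.49 in L_FMG and 7.56, 8.13 and 7.66 in HFD. Those groups also kept apart, with L_FMG 1.18 ± 0.31 over ND, and Fcgr1 rose by 1.99 in HFD. Fcgr4, another IgG receptor, differed by 0.90 ± 0.26. Itgb2, the common chain of leukocyte integrins, differed by 0.99 ± 0.29 and Adgre1, an adhesion receptor widely used to mark mouse macrophages, by 0.81 ± 0.31, and in both the L_FMG and ND arrays overlapped because ND array 9 was high, at 9.23 and 8.59. When ND array 9 was left out, 7 of the 23 markers passed, and the differences were 1.53 for Cd68, 1.37 for Itgb2 and 1.20 for Adgre1.

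Markers of lipid-laden macrophages, the cells that take up adipocyte lipid, gave the largest median of the lists described here, 0.62 over 14 genes, with 8 wholly above ND and 0 past the threshold. In HFD, 12 of the 14 rose, with a median of 0.91. Trem2, a lipid-sensing receptor of these cells, measured 6.32, 5.99 and 8.03 in ND, 8.04, 8.60 and 7.98 in L_FMG and 8.86, 9.18 and 8.54 in HFD. ND array 9 was level with L_FMG, and the L_FMG difference of 1.43 ± 0.42 had an adjusted p of 0.177. L_FMG minus HFD was -0.65 for Trem2, with an interval from -1.53 to 0.23. Gpnmb, a glycoprotein of lysosome-rich macrophages, measured 8.45, 7.95 and 10.57 in ND and 10.42, 10.93 and 10.75 in L_FMG, again with ND array 9 among the L_FMG values. Its difference was 1.71 ± 0.44, and it rose by 2.23 in HFD. Tm4sf19, a membrane protein, differed by 1.92 ± 0.44 without overlap and rose by 2.74 in HFD. Atp6v0d2, a subunit of the proton pump, differed by 1.64 ± 0.42 and Lgals3, galectin 3, by 0.68 ± 0.18, each without overlap. Without ND array 9, 9 of the 14 passed, with differences of 2.05 for Trem2, 2.50 for Gpnmb, 2.60 for Tm4sf19, 2.26 for Atp6v0d2 and 0.90 for Lgals3.

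Lysosomal genes showed the same order of groups, but the list is not separate from the macrophage lists. Ctsl, Ctsb, Ctsk, Lipa, Npc2, Cd63 and Atp6v0d2 are also lipid-laden macrophage markers here, and Ctss is also a macrophage marker. Their median difference over 23 genes was 0.45 in L_FMG, with 13 wholly above ND and 0 past the threshold, and 0.68 in HFD, where 18 rose. Ctsl, cathepsin L, measured 9.71, 9.68 and 10.04 in ND and 10.37, 10.38 and 10.19 in L_FMG, a difference of 0.51 ± 0.13 without overlap. Lgmn, legumain, a lysosomal protease, differed by 0.81 ± 0.22. With ND array 9 left out, 10 of the 23 passed, with Ctsl at 0.62 and Lgmn at 1.10. Markers of resident macrophages had a smaller median, 0.18 over 11 genes, with 1 wholly above ND, and it was 0.07 without ND array 9. Only 7 of the 11 had a positive difference, and the 3 named next are among these. Pf4, a chemokine of resident macrophages, differed by 0.39 ± 0.14 and Mrc1, the mannose receptor, by 0.33 ± 0.16, and they rose by 0.85 and 0.73 in HFD. Chil3, a chitinase-like protein, differed by 0.60 ± 0.27 and overlapped with ND.

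**Figure D2:**
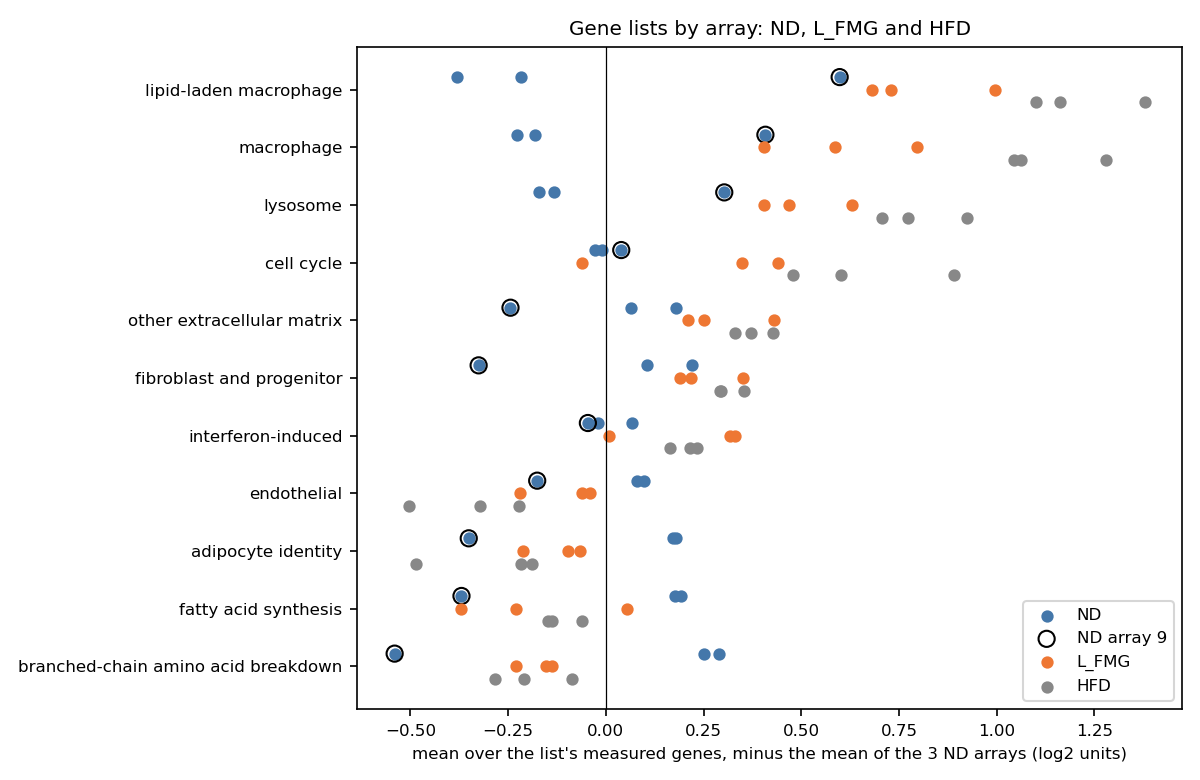
Mean log2 level of 11 gene lists in each ND, L_FMG and HFD array, relative to the ND mean; ND array 9 is ringed. In the macrophage, lipid-laden macrophage and lysosome lists the HFD arrays were highest and the L_FMG arrays lay between them and ND arrays 6 and 8, with ND array 9 near the L_FMG arrays. The lysosome list shares genes with the other lists named.

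Chemokine and cytokine genes had a median difference of 0.18 over 23 genes, with 6 wholly above ND and 0 past the threshold, and the median was 0.07 without ND array 9. Ccl2, which draws monocytes into tissue, measured 5.40, 5.23 and 5.75 in ND, 6.30, 6.81 and 6.00 in L_FMG and 6.64, 7.04 and 6.55 in HFD. L_FMG was above every ND array, by 0.92 ± 0.25, and overlapped with HFD, where Ccl2 rose by 1.28. Ccl9, a chemokine of myeloid cells, differed by 0.56 ± 0.17, and it was the member that passed without ND array 9, at 0.76. Il1rn, the antagonist of the interleukin 1 receptor, differed by 0.67 ± 0.27 and Tnf, tumour necrosis factor, by 0.42 ± 0.21, each without overlap. Cxcl13, which attracts B cells, measured 4.67, 4.93 and 4.10 in ND, 5.24 in L_FMG array 4, less in array 8 and 6.88 in array 10, so most of its difference of 1.14 came from array 10.

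Interferon-induced genes had a median difference of 0.19 over 20 genes, with 5 wholly above ND. Their mean relative to ND was 0.32, 0.33 and 0.01 in the L_FMG arrays, so array 10 was level with ND. Ifi204, an interferon-induced DNA sensor in a family of similar genes whose probes may not separate them, measured 4.57, 5.28 and 4.90 in ND and 6.05, 6.04 and 5.70 in L_FMG. The difference was 1.01 ± 0.20 without overlap, with an adjusted p of 0.125, and it rose by 1.46 in HFD. Ifi204 was the listed gene that passed without ND array 9, at 1.00. Oasl2, an antiviral protein, differed by 0.48 ± 0.12 and Usp18, which damps interferon signalling, by 0.59 ± 0.15, each without overlap. Irf9, a transcription factor of the interferon response, differed by 0.29 ± 0.13 and overlapped. MHC class II genes had a median of 0.13 over 8 genes, with 0 wholly above ND. H2-Aa, a class II chain, measured 9.34, 9.27 and 9.16 in ND and 9.60, 9.77 and 9.32 in L_FMG.

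Markers of other immune cells differed little in the median. It was 0.05 for 12 T lymphocyte genes, -0.03 for 9 B lymphocyte genes, 0.09 for 11 mast cell genes and -0.05 for 9 neutrophil genes, and 0 of them passed. Without ND array 9 the T lymphocyte median was 0.11 and the B lymphocyte median 0.01. Il7r, the interleukin 7 receptor, listed as a T lymphocyte gene, measured 5.50, 5.49 and 7.87 in ND, 7.89, 8.48 and 8.14 in L_FMG and 8.84, 9.06 and 8.75 in HFD. ND array 9 was close to L_FMG as in the macrophage genes, the L_FMG difference was 1.88 ± 0.47, and it was 2.67 without that array, where Il7r passed. Cpa3, a mast cell protease, measured 5.81, 6.12 and 4.64 in L_FMG and 5.72, 7.90 and 7.50 in HFD, against 4.50, 5.22 and 4.30 in ND, and the L_FMG and ND groups overlapped. Mcpt4, another mast cell protease, differed from ND by 0.77 ± 0.43. Csf3r, the receptor for granulocyte colony-stimulating factor, differed by 0.45 ± 0.15, without overlap. It was the 1 neutrophil gene of the 9 wholly above ND, and only 3 of the 9 had a positive difference.

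Adipocyte identity genes had a median difference of -0.18 over 15 genes, with 1 wholly above ND, 1 wholly below and 0 past the threshold. In HFD 4 of them fell and 0 rose, with a median of -0.31. The L_FMG arrays were wholly above HFD in 5 of the 15 and wholly below in 0, beside 7.3% and 10.1% of all genes. Adipoq, adiponectin, differed from ND by -0.20 ± 0.17, Slc2a4, the insulin-responsive glucose transporter, by -0.18 ± 0.21, Pparg, the master regulator of adipocytes, by -0.24 ± 0.12 and Lep, leptin, by 0.10 ± 0.18, each with overlapping arrays. The interval for Lep ran from -0.28 to 0.48. Without ND array 9 the differences were -0.01 for Lep, -0.38 for Adipoq and -0.44 for Slc2a4, none past the threshold. Rbp4, retinol-binding protein 4, measured 9.16, 9.15 and 8.85 in ND, 8.58, 8.54 and 8.79 in L_FMG and 8.49, 8.22 and 8.58 in HFD. It was below ND in every L_FMG array, by -0.42 ± 0.16, and fell by 0.62 in HFD. Sfrp5, a secreted inhibitor of Wnt signalling, was above ND by 0.42 ± 0.19 without overlap. Acvr1c, a receptor of the activin family that restrains lipolysis, differed by -0.66 ± 0.23 and overlapped with ND through ND array 9, at 7.28 against 8.33 and 8.27. The adipocyte median was -0.36 without ND array 9, and Acvr1c and Pparg, the latter at -0.41, passed.

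Genes of fatty acid synthesis had a median difference of -0.14 over 14 genes, with 1 wholly below ND and 0 past the threshold. That gene was Fasn, fatty acid synthase, at 11.41, 11.43 and 10.90 in ND, 10.73, 10.72 and 10.44 in L_FMG and 10.79, 10.63 and 10.61 in HFD. L_FMG and HFD overlapped, and both lay below ND. The L_FMG difference was -0.62 ± 0.13, with an interval from -0.89 to -0.34 and an adjusted p of 0.135, and Fasn fell by 0.57 in HFD. Acly, which makes cytosolic acetyl-CoA from citrate, differed by -0.41 ± 0.13, and Acss2, which makes it from acetate, by -0.77 ± 0.23. Acaca, acetyl-CoA carboxylase, differed by -0.64 ± 0.21 and fell by 0.83 in HFD. In these 3 genes ND array 9 lay with or near the L_FMG arrays, for Acaca at 7.80 against 8.88 and 8.77 in the other ND arrays. Without it 6 of the 14 passed, with differences of -0.79 for Fasn, -0.57 for Acly, -1.16 for Acss2 and -0.98 for Acaca. Fasn passed under quantile normalization also, at -0.68.

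Other lipid lists moved with ND array 9. Triglyceride synthesis had a median of -0.18 over 11 genes, lipolysis and lipid droplets -0.08 over 11, fatty acid oxidation -0.05 over 18 and cholesterol synthesis 0.02 over 13, with 0 past the threshold. The medians without that array were -0.40, -0.15, -0.17 and -0.05, and 1 gene of fatty acid oxidation fell. Plin2, a coat protein of lipid droplets that macrophages also carry, measured 9.83, 9.74 and 10.18 in ND, 10.48, 10.57 and 10.38 in L_FMG and 10.77, 10.85 and 10.68 in HFD. The groups followed each other without overlap, L_FMG at 0.56 ± 0.15 over ND, and Plin2 rose by 0.85 in HFD. Pnpla3, a lipase of the same family as the main adipocyte lipase, differed by -0.74 ± 0.18 with all L_FMG arrays below ND, and fell by 0.61 in HFD. Plin2 (0.69) and Pnpla3 (-0.93) passed without ND array 9. Cpt1a, which admits fatty acids to mitochondria, differed by 0.35 ± 0.10 without overlap. Srebf2, the regulator of cholesterol synthesis, differed by 0.41 ± 0.13 and rose by 0.64 in HFD. In the cholesterol list 3 of 13 genes rose in HFD, with a median of 0.38. The L_FMG arrays were wholly below HFD in 5 and wholly above in 0, beside 10.1% and 7.3% of all genes.

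All 10 measured genes of branched-chain amino acid breakdown had negative differences, with a median of -0.15, but in 0 were the L_FMG arrays wholly below ND. ND array 9 was far lower than the others for this list, -0.54 relative to the ND mean against 0.29 and 0.25, and the L_FMG arrays stood at -0.15, -0.14 and -0.23. Without that array the median was -0.46 and 4 of the 10 passed, Pcca, a subunit of propionyl-CoA carboxylase, at -0.56 and Dld, a shared dehydrogenase subunit, at -0.38 among them. With all arrays they differed by -0.31 ± 0.14 and -0.21 ± 0.11. The respiratory chain had a median of -0.08 over 21 genes, insulin signalling and glucose transport -0.05 over 14 and thermogenic genes -0.03 over 10, with 0 past the threshold. These medians were -0.22, -0.19 and -0.11 without ND array 9, and 0 of the genes passed there.

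Endothelial markers had a median of -0.12 over 20 genes in L_FMG, with 3 wholly below ND and 0 above, and -0.36 in HFD, where 4 fell. The L_FMG arrays were wholly above HFD in 9 of the 20 and wholly below in 0, beside 7.3% and 10.1% of all genes. Vwf, von Willebrand factor, measured 6.98, 7.19 and 6.91 in ND, 6.29, 6.60 and 6.57 in L_FMG and 6.35, 6.16 and 6.43 in HFD. All L_FMG arrays lay below all ND arrays, by -0.54 ± 0.12 with an adjusted p of 0.135, and Vwf fell by 0.71 in HFD. Egfl7, a matrix protein secreted by endothelium, measured 7.19, 7.14 and 7.25 in ND, from 6.86 to 7.14 in L_FMG and 6.63, 6.46 and 6.66 in HFD. Its L_FMG level was between the others, -0.19 ± 0.14 from ND and 0.42 from HFD, with an interval from 0.13 to 0.70 for the latter and an adjusted p of 0.46. Nos3, endothelial nitric oxide synthase, differed from ND by -0.29 ± 0.12.

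Smooth muscle and pericyte markers had a median of -0.23 over 9 genes, with 1 wholly above ND and 1 wholly below. The differences were of both signs, positive in 3 of the 9. Myh11, the smooth muscle myosin heavy chain, measured 7.83, 7.90 and 7.09 in ND and 7.25, 6.71 and 6.89 in L_FMG, a difference of -0.66 ± 0.21 with overlap. Myl9, a myosin light chain, differed by -0.38 ± 0.18. The median was -0.51 without ND array 9, and Myh11 (-0.92) and Myl9 (-0.65) passed, as did Vwf (-0.60) among endothelial genes. Mesothelial markers, from the sheet that covers the fat pad, spread widely within both groups. Their mean relative to ND was 0.51, -0.16 and -0.36 in ND and 0.23, -0.29 and 0.29 in L_FMG. Epididymis and sperm markers had means from -0.09 to 0.06 in ND and from -0.08 to 0.06 in L_FMG. The bright Odf1 had 2 probes of opposite sign, 0.33 and -0.12, neither of which passed.

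Cell cycle genes had a median difference of 0.25 over 21 genes, with 3 wholly above ND and 0 past the threshold, against 0.71 in HFD, where 8 rose. Their mean relative to ND was 0.35, 0.44 and -0.06 in the L_FMG arrays, so arrays 4 and 8 were above ND and array 10 was not. Mcm6, part of the replication helicase, measured 5.46, 5.41 and 5.45 in ND and 6.16, 6.19 and 5.65 in L_FMG. Its difference was 0.56 ± 0.21, and Mcm3, of the same complex, differed by 0.54 ± 0.25 with overlap. Ect2, a factor of cell division, measured 5.05, 5.13 and 4.13 in ND, 5.39, 5.83 and 4.69 in L_FMG and 5.93, 6.46 and 6.06 in HFD, with L_FMG wholly below HFD. Its difference from ND was 0.54 ± 0.29, and 0.22 without ND array 9.

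Immediate early genes, which respond within minutes to a stimulus and also to handling, had a median of 0.19 over 15 genes. Fos, a transcription factor of this class, measured 5.63, 5.14 and 6.74 in ND and 7.05, 6.86 and 6.91 in L_FMG, a difference of 1.10 ± 0.32. ND array 9 was again near L_FMG. Egr2 differed by 0.87 ± 0.33 and Atf3 by 0.98 ± 0.37, and Fos (1.56), Egr2 (1.29) and Atf3 (1.54) passed without that array. The genes of endoplasmic reticulum stress had a median of 0.17 over 17, all 17 positive and 2 wholly above ND, and 0.10 without ND array 9. Atf6, a sensor of unfolded proteins, measured 7.18, 7.23 and 7.26 in ND and 7.64, 7.70 and 7.24 in L_FMG, where array 10 lay with ND. Antioxidant genes had a median of 0.06 over 16, which turned to -0.05 without ND array 9. Txnrd1, thioredoxin reductase, was 0.40 ± 0.12 over ND without overlap. Gsta3, a glutathione transferase, differed by -0.89 ± 0.25, overlapped with ND through ND array 9 and passed without it, at -1.26. Acute-phase genes had a median of -0.11 over 15, and -0.19 without ND array 9, clock genes 0.00 over 14 and ribosomal protein genes 0.10 over 22, with 0 past the threshold. Lcn2, lipocalin 2, an acute-phase protein, measured 8.50, 6.51 and 5.78 in L_FMG and 5.91, 6.02 and 4.63 in ND, so its difference of 1.41 ± 0.58 leaned on L_FMG array 4.

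The high-fat effects themselves were read in L_FMG next. Both comparisons use the same 3 ND arrays, and these genes were chosen on HFD against ND. The shared ND arrays by themselves favour the same sign in L_FMG, so the values are set side by side as a description. Of 1063 genes that rose in HFD, 1 was also called in L_FMG against ND, which was Thbs2, and 648 had an unadjusted p under 0.05 in the same direction. Over all 16248 genes, 1110 were higher and 979 lower in L_FMG at that p. Their median difference was 0.63 in HFD, 0.36 in L_FMG and 0.25 in H_FMG. The L_FMG arrays were wholly above ND in 513 of them, 48.3%, beside 6.73% of all genes. Of 340 genes that fell in HFD, 0 were called in L_FMG, 182 had an unadjusted p under 0.05, and the medians were -0.56 in HFD, -0.33 in L_FMG and -0.26 in H_FMG. The L_FMG arrays were wholly below ND in 147 of them, 43.2%, beside 6.57% of all genes. Within the group, L_FMG array 10 was nearest to ND. The median over the risen genes was 0.41, 0.45 and 0.21 in arrays 4, 8 and 10, and over the fallen genes -0.40, -0.35 and -0.25. Without ND array 9, 144 of the 1063 and 20 of the 340 were called in L_FMG against ND. The sets themselves depend on the processing. Of the 1403 genes in both, 832 were called in HFD against ND under quantile normalization and 932 without ND array 9.

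The 10 largest rises in HFD were between 2.04 and 2.88, with a median of 2.40. In L_FMG the same genes differed from ND by 0.85 to 1.92, with a median of 1.58, and in H_FMG by 0.66 to 1.55, with a median of 1.22. The L_FMG arrays were clear of ND in 5 of the 10 and clear of HFD in 8, but the choice on HFD against ND favours both counts. Besides Tm4sf19, Gpnmb, Trem2, Atp6v0d2, Il7r and Cpa3 they were Dhrs9, Rgs1, Myh15 and Olfr111. Dhrs9, a retinol dehydrogenase, measured 4.75, 4.39 and 6.32 in ND, 6.67, 7.32 and 6.95 in L_FMG and 7.66, 8.19 and 7.46 in HFD, 3 levels without overlap. Rgs1, which ends signals of G protein-coupled receptors in leukocytes, differed by 1.51 ± 0.42 in L_FMG, and Myh15, a myosin heavy chain, by 0.99 ± 0.33. Olfr111 belongs to the large family of olfactory receptors, where probe identity is uncertain, and differed by 1.33 ± 0.55. Dhrs9 (2.41), Rgs1 (2.16) and Olfr111 (2.14) passed without ND array 9.

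The 10 largest falls in HFD were between -1.83 and -1.01, with a median of -1.07, against -0.96 to -0.11 in L_FMG, median -0.55, and -0.52 to -0.06 in H_FMG, median -0.26. The L_FMG arrays were clear of ND in 4 and clear of HFD in 4, again in genes chosen on HFD against ND. Orm3, an orosomucoid of the acute phase, measured 6.12, 6.08 and 5.73 in ND, 4.60, 4.95 and 5.48 in L_FMG and 4.66, 3.21 and 4.56 in HFD. It was below ND in each L_FMG array, by -0.96 ± 0.37, with array 10 nearest. Serpina1d, a protease inhibitor, differed by -0.80 ± 0.21 without overlap and passed without ND array 9, at -1.03. Rasd1, a small GTPase induced by steroid hormones, differed by -0.64 ± 0.24 and the noncoding transcript Ctcflos by -0.66 ± 0.21, each without overlap. Gpat3, which starts triglyceride synthesis, differed by -0.46 ± 0.28, and by -0.82 without ND array 9. Its other probe differed by -0.45. Orm3, Serpina1d, Rnase2a (-0.87 ± 0.41), an RNase, and Vmn1r3 (-0.34 ± 0.30), a pheromone receptor, have close relatives that their probes may not separate. Snora47, a small nucleolar RNA, differed by -0.46 ± 0.24. Vmn1r3 turned to 0.08 and Snora47 was -0.25 without ND array 9.

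**Figure D3:**
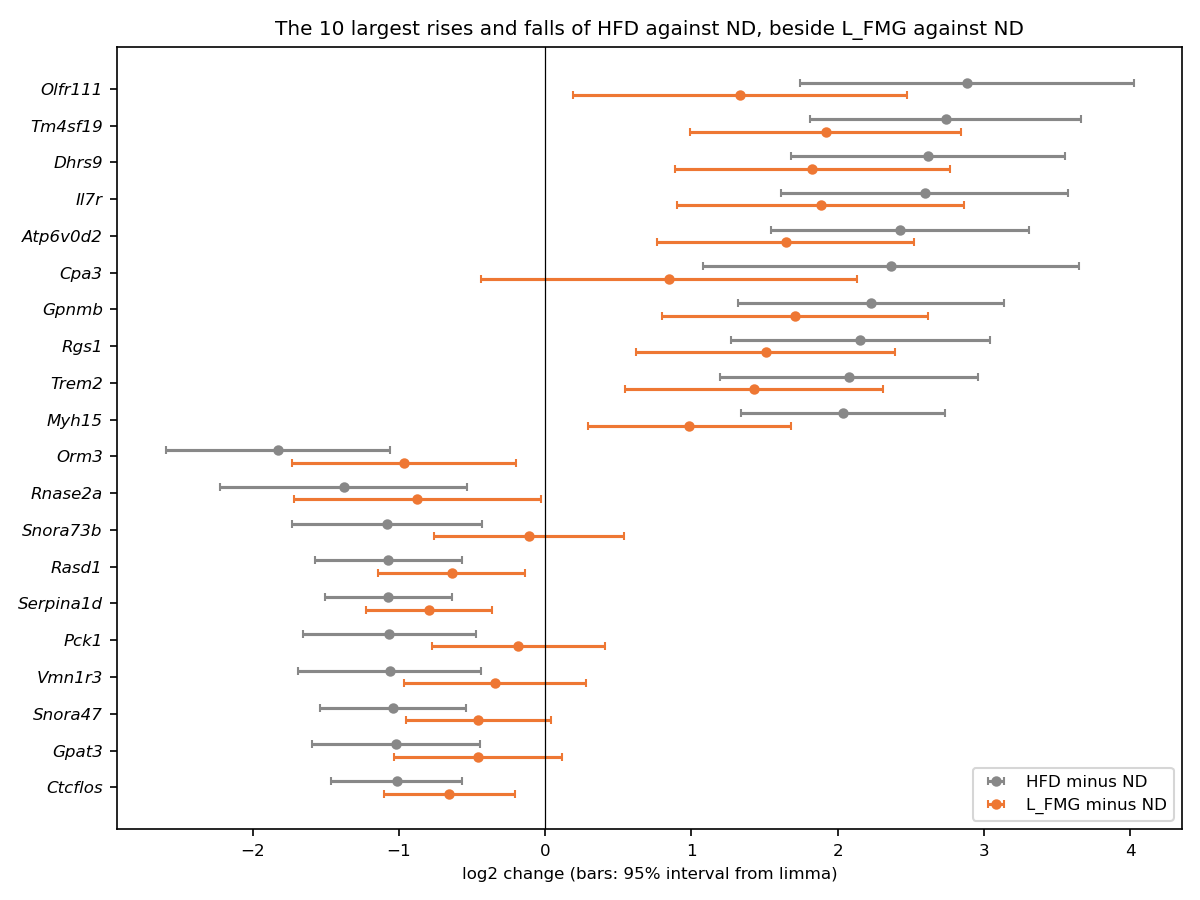
Log2 difference from ND of the 10 genes with the largest rises and the 10 with the largest falls in HFD, for HFD and L_FMG. The 95% intervals from limma are not adjusted for the number of genes. The genes were chosen on HFD against ND. In L_FMG the risen genes lay between 0.85 and 1.92 and the fallen genes between -0.96 and -0.11.

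L_FMG lay nearer to HFD than to ND in 7 of the 10 largest rises and in 5 of the 10 largest falls. Pck1, one of those falls, and Ly96, which also changed in HFD, lay closer to ND than to HFD in L_FMG. Ly96 was picked for its small p against HFD, which by itself favours its distance from HFD. Pck1, which makes glycerol for triglycerides in adipocytes, measured 11.03, 10.89 and 10.44 in ND, 10.44, 10.47 and 10.91 in L_FMG and 9.94, 9.35 and 9.87 in HFD. ND and L_FMG overlapped and both were above HFD. It fell by 1.07 in HFD and differed by -0.18 ± 0.28 in L_FMG, with an interval from -0.78 to 0.41 and a value of -0.36 without ND array 9. L_FMG minus HFD was 0.88 for Pck1, with an interval from 0.29 to 1.48 and an adjusted p of 0.454 (limma). Ly96, the co-receptor through which cells sense bacterial lipopolysaccharide, measured 7.19, 6.87 and 6.92 in ND, 7.31, 7.60 and 7.61 in L_FMG and 8.44, 8.60 and 8.56 in HFD. It kept 3 separate levels. It rose by 1.54 in HFD and stood 0.51 ± 0.22 over ND in L_FMG, and L_FMG minus HFD was -1.03, with an interval from -1.49 to -0.56 and an adjusted p of 0.454.

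L_FMG against HFD, the comparison that tests the grain, called 0.0% of the genes (limma). There were 1407 genes at an unadjusted p under 0.05, 592 higher and 815 lower in L_FMG, and the smallest adjusted p was 0.087. It belonged to Snord104, a small nucleolar RNA that guides methylation of ribosomal RNA, at 8.40, 8.57 and 8.48 in ND, 8.46, 8.52 and 8.54 in L_FMG and 7.77, 7.70 and 7.59 in HFD. L_FMG and ND overlapped, and both were above HFD, L_FMG by 0.82 with an interval from 0.54 to 1.10. Snora73b, another small nucleolar RNA, was 0.97 above HFD, and its difference from ND was -0.11 ± 0.31 with all arrays and 0.38 without ND array 9. Eif5a, a translation factor, measured 7.08, 7.26 and 7.08 in L_FMG, 7.07, 7.09 and 7.09 in ND and 7.54, 7.63 and 7.50 in HFD, again with L_FMG level with ND. S100a5, a calcium-binding protein, H2bc12, a histone, and Otub1, a deubiquitinase, were lower in all L_FMG than in all HFD arrays, by -0.81, -0.93 and -0.42. They had differences of -0.28 ± 0.16, 0.31 ± 0.20 and 0.15 ± 0.10 from ND. Genes named in this paragraph were picked for a small p in this comparison or a large change in HFD. That choice by itself favours their separation from HFD. Of the 1063 genes risen and the 340 fallen in HFD, 0 passed in L_FMG against HFD, and the median of L_FMG minus HFD was -0.31 and 0.22. Both sets were chosen on the HFD arrays, which by itself favours these signs, so the medians are no test of the grain.

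The higher dose, against the same ND arrays, called 0.00615% of the genes, again Thbs2 as the 1 gene, and 1359 genes at an unadjusted p under 0.05. It called 22 without ND array 9, 4 without ND array 6, 2 without ND array 8 and 3 without H_FMG array 8. H_FMG against L_FMG called 0.0% of the genes, with 636 at an unadjusted p under 0.05 and a smallest adjusted p of 0.998, so differences between the doses were not detectable with these arrays. For Thbs2 the doses stood at 0.83 and 0.78 over ND, for Cd68 at 0.82 and 1.13, for Fasn at -0.45 and -0.62, and for Mmp14 at 0.33 and 0.79, H_FMG first.

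**Figure D4:**
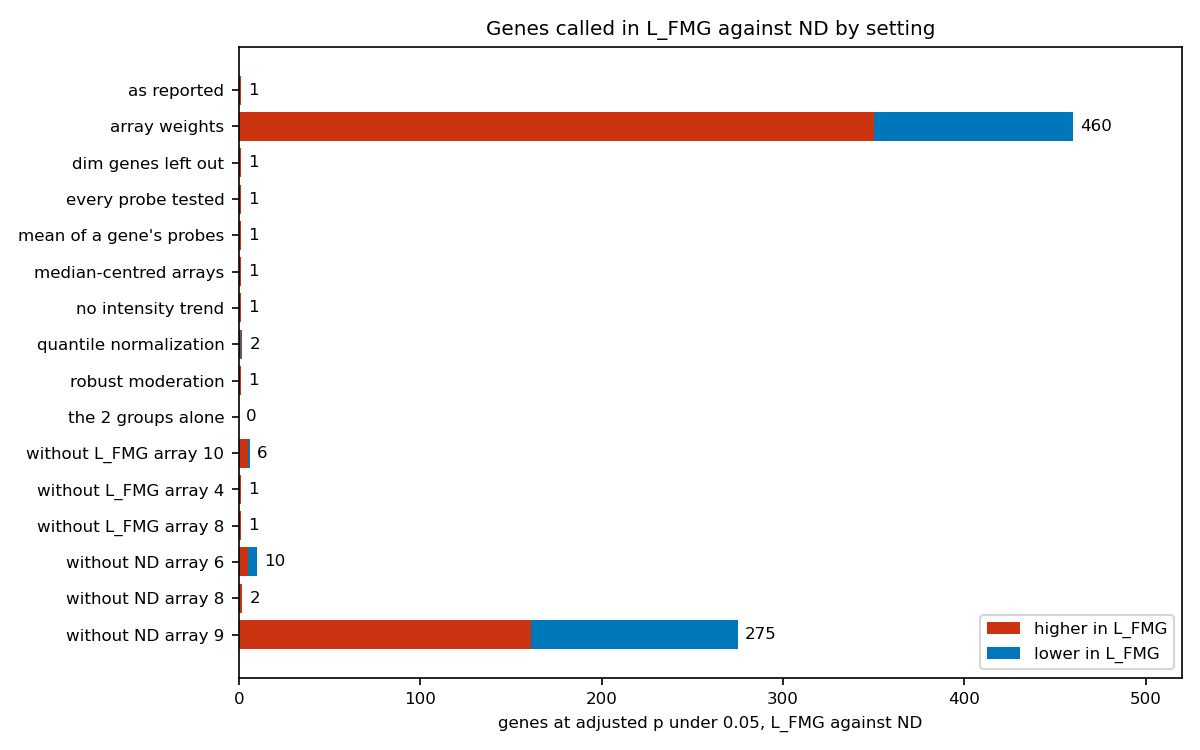
Number of genes past an adjusted p of 0.05 in L_FMG against ND in the analysis reported and under each alternative, with bars from 0. Array weights gave 460 calls and leaving out ND array 9 gave 275, and the other alternatives gave between 0 and 10.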

How the data were processed

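Epididymal fat RNA was measured on 21 arrays in 7 groups of 3. RNA was isolated with Trizol and its sense cDNA carried biotin from a GeneChip WT labelling kit, per the labels' protocols. The deposited values are log2 levels, 1 per probe and array. The authors' summarisation, normalization and log base were not given in the sources used here, and base 2 was inferred from the range of 0.844 to 12.7. Neither scan dates nor batches were given, and batches were not checked.

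The table held 24292 probes, of which 24291 had all 21 values. Of these, 17067 had 1 gene symbol in the platform annotation, 1139 several and 6085 none. Only the first entered the gene tests, and 116 of them had no match in the gene table (RefSeq, GRCm38.p6, used for names and chromosomes). For 668 genes with more than 1 probe the brightest was used. The table is held in part: 18 of the genes lie on chromosomes 7, 8, 9, X and Y, 42% of protein-coding genes of chromosome 6 were measured, and 78.4 to 91.1% of those on chromosomes 1 to 5 and 10 to 19. Other genes were not analysed here. The 37 lists name 751 genes, 522 of them measured. Among the 229 not measured, 173 are on chromosomes 6 to 9 or X.

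Values were used without further normalization. A model with a mean for each of the 7 groups and an intensity trend was fitted to all 21 arrays (limma 3.58.1, R 4.3.3), and the script was tested on simulated data. P-values are two-sided and adjusted by Benjamini-Hochberg over all genes within a comparison. Intervals are 95% and unadjusted. "Rose" and "fell" mean an adjusted p under 0.05. Comparisons with ND share its 3 arrays. The alternatives were quantile normalization, median-centring, leaving out dim genes, every probe, the mean of a gene's probes, the 2 groups alone, no trend, robust moderation, array weights and leaving out each array. Members, lists and tests were chosen with earlier results of these data known. Named genes are a selection of the 5 smallest p per direction (10 largest changes where enough genes passed, without predicted gene models), the 4 smallest p of each list, an obesity panel, the 10 largest rises and falls in HFD and the 5 smallest p per direction against HFD.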

Additional observations from a re-analysis of the deposited data

How the results depend on the processing

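No paired analysis was possible because the titles of the L_FMG and ND arrays share 1 number, as do those of L_FMG and HFD and of HFD and ND. The count of calls in L_FMG against ND, 1 as reported, was 2 under quantile normalization, 0 with the 2 groups alone and 460 with array weights, and lay between 1 and 275 (without ND array 9) when 1 array was left out. HFD against ND, 1403 as reported, gave 2432 with array weights, 774 with the 2 groups alone and between 368 (without HFD array 6) and 1457 when 1 array was left out. Quantile normalization gave 1126, 679 higher and 447 lower, of which 832 were among the 1403. The 1362 calls without ND array 9 held 932 of the 1403. L_FMG against HFD, 0 as reported, gave 1 with array weights, 3 with the 2 groups alone and 0 when any 1 array was left out. H_FMG against ND, 1 as reported, gave 29 with array weights, 0 with the 2 groups alone and between 1 and 22 (without ND array 9) when 1 array was left out. H_FMG against L_FMG gave 0 in all alternatives run. Of 1475 values of the 99 named genes, 1368 kept their direction and side of the threshold, 95 newly passed it, 53 of them with array weights and 39 without ND array 9, and 1 lost it, Thbs2 with the 2 groups alone. In 5 genes, none called under any of these settings, 11 values turned sign. When 1 array was left out, Lep ran from -0.055 to 0.38, Snora73b from -0.46 to 0.38, Vmn1r3 from -0.57 to 0.081, Snord104 from -0.019 to 0.066 and Eif5a from -0.0052 to 0.085. Under quantile normalization Snord104 was -0.058 and Eif5a -0.046, and with array weights Snora73b was 0.17. Of 518 list medians, 24 in 14 lists moved by more than the spread between arrays. The cause was not tested. With 3 arrays per group, smaller differences may have been missed, and signal over background could not be read from these values.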

Other observations

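Clock genes as a list had a median difference of 0.00 over 14 genes in L_FMG, with 2 wholly above ND and 1 wholly below. Nr1d2, which encodes the clock repressor REV-ERB beta, measured 6.09, 6.05 and 5.69 in ND, 7.01, 6.54 and 6.43 in L_FMG and 6.34, 6.23 and 5.99 in HFD. All L_FMG arrays were above all arrays of both other groups, by 0.71 ± 0.18 over ND with an adjusted p of 0.154 (limma) and by 0.48 over HFD with an interval from 0.10 to 0.85, so neither difference passed. In H_FMG it was 0.86 over ND. Per1, another clock gene, was 0.46 ± 0.16 over ND and overlapped with it. Sources used here do not give the hours at which tissues were taken.

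The obesity panel, 24 measured genes chosen across macrophage, matrix, lipid and adipokine genes, had a median difference of 0.10 in L_FMG, with 8 wholly above ND, 1 wholly below and 0 past the threshold. In HFD 10 of the 24 rose and 3 fell. Without ND array 9 the median in L_FMG turned to -0.05, and 3 genes rose and 3 fell.

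Probes without a single gene symbol, 7224 in number, were tested apart from the genes in L_FMG against ND. Of these 0 passed (limma), 793 had an unadjusted p under 0.05, and the smallest adjusted p was 0.13.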
